A study of Sus scrofa with 21 samples.

Results

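The transcripts of the outer dense fibre genes ODF1 to ODF4 and of the tektin genes TEKT1 to TEKT5 were examined in testis RNA of 21 boars. The 9 genes were chosen by name, with earlier results of these data known. Their rows were found through the Ensembl pig gene identifiers paired with these symbols. Of the 9, 7 were matched among the 25880 genes counted, 3 of the 4 outer dense fibre genes and 4 of the 5 tektin genes. ODF4 and TEKT4 had no Ensembl identifier in the name table used and were not analysed here. ODF3 was listed under its newer symbol CIMAP1A.

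The study asked which testis transcripts accompany a high or low level of sperm hyperactive motility, the vigorous, asymmetric beating of the tail that sperm use near the oocyte. All boars were purebred artificial insemination boars, the testis was sampled after slaughter, and 1 library was made per boar, so that the RNA and the semen measurements were not taken at the same time. In Landrace, contrast (i) set the boars with high hyperactivity on the day of ejaculation, day 0 (L5, L6, L7 and L8), against those with low hyperactivity (L1, L2, L3 and L4). Contrast (iii) set the boars whose hyperactivity changed much over 96 h of liquid storage at 18 °C (L7, L13 and L15) against those in which it changed little (L2, L9, L10 and L12). Boars L2 and L7 stood in both Landrace contrasts. Of the 8 Duroc boars, D1 to D5 were labelled High and D6, D7 and D9 Low. For most Duroc boar names the deposited label differs from the group in the publication's own list of boars, so Duroc values are given for libraries labelled High or Low and no direction is drawn from them. None of the boars was treated, and no further genotype was given in the labels.

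Outer dense fibres are the stiff, keratin-like cables that run beside the axoneme, the microtubule core of the sperm tail, and they are laid down while spermatids elongate. ODF1 is a small heat shock-like protein of the fibres that also takes part in holding head and tail together, ODF2 is a main fibre protein of which other isoforms sit at the centrosome, and ODF3 belongs to a family of microtubule-associated repeat proteins. Tektins are rod-shaped proteins that form filaments along the microtubule doublets of cilia and flagella. TEKT1, TEKT2 and TEKT3 occur in motile cilia as well as in sperm, whereas TEKT5 is known mainly from the sperm tail.

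On the Sscrofa11.1 assembly, RefSeq places ODF1 (ENSSSCG00000006056) on chromosome 4 from 34511077 to 34520601, ODF2 (ENSSSCG00000005651) on chromosome 1 from 268856755 to 268893390 and ODF3 (ENSSSCG00000014555) on chromosome 2 from 20869 to 25845. TEKT1 (ENSSSCG00000017884) lies on chromosome 12 from 50526188 to 50552083 and TEKT3 (ENSSSCG00000018028) on the same chromosome from 58734289 to 58773400. TEKT2 (ENSSSCG00000003633) lies on chromosome 6 from 92233479 to 92238125 and TEKT5 (ENSSSCG00000007904) on chromosome 3 from 32350906 to 32393123. These are whole gene spans, which no other RefSeq gene overlapped. Reads were counted per gene, so isoforms such as those of ODF2 were not separated.

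Library depth ran from 47988011 to 97059970 counted reads in Landrace and from 41358671 to 125576407 in Duroc. The smallest count of a matched gene in any library was 136, for ODF3, and the other 6 genes had at least 1040 reads in every library. All 7 genes passed the filter of 1 CPM (a gene's reads scaled to a common, normalized library size) in every comparison. Markers of the expected testis cells were present, with the summed CPM of 8 elongating spermatid genes between 6042 and 14193 over the 21 boars and that of 6 Leydig cell genes between 596 and 4559.5. Of the Sertoli cell markers, AMH was under 1 CPM in every library.

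**Figure D1:**
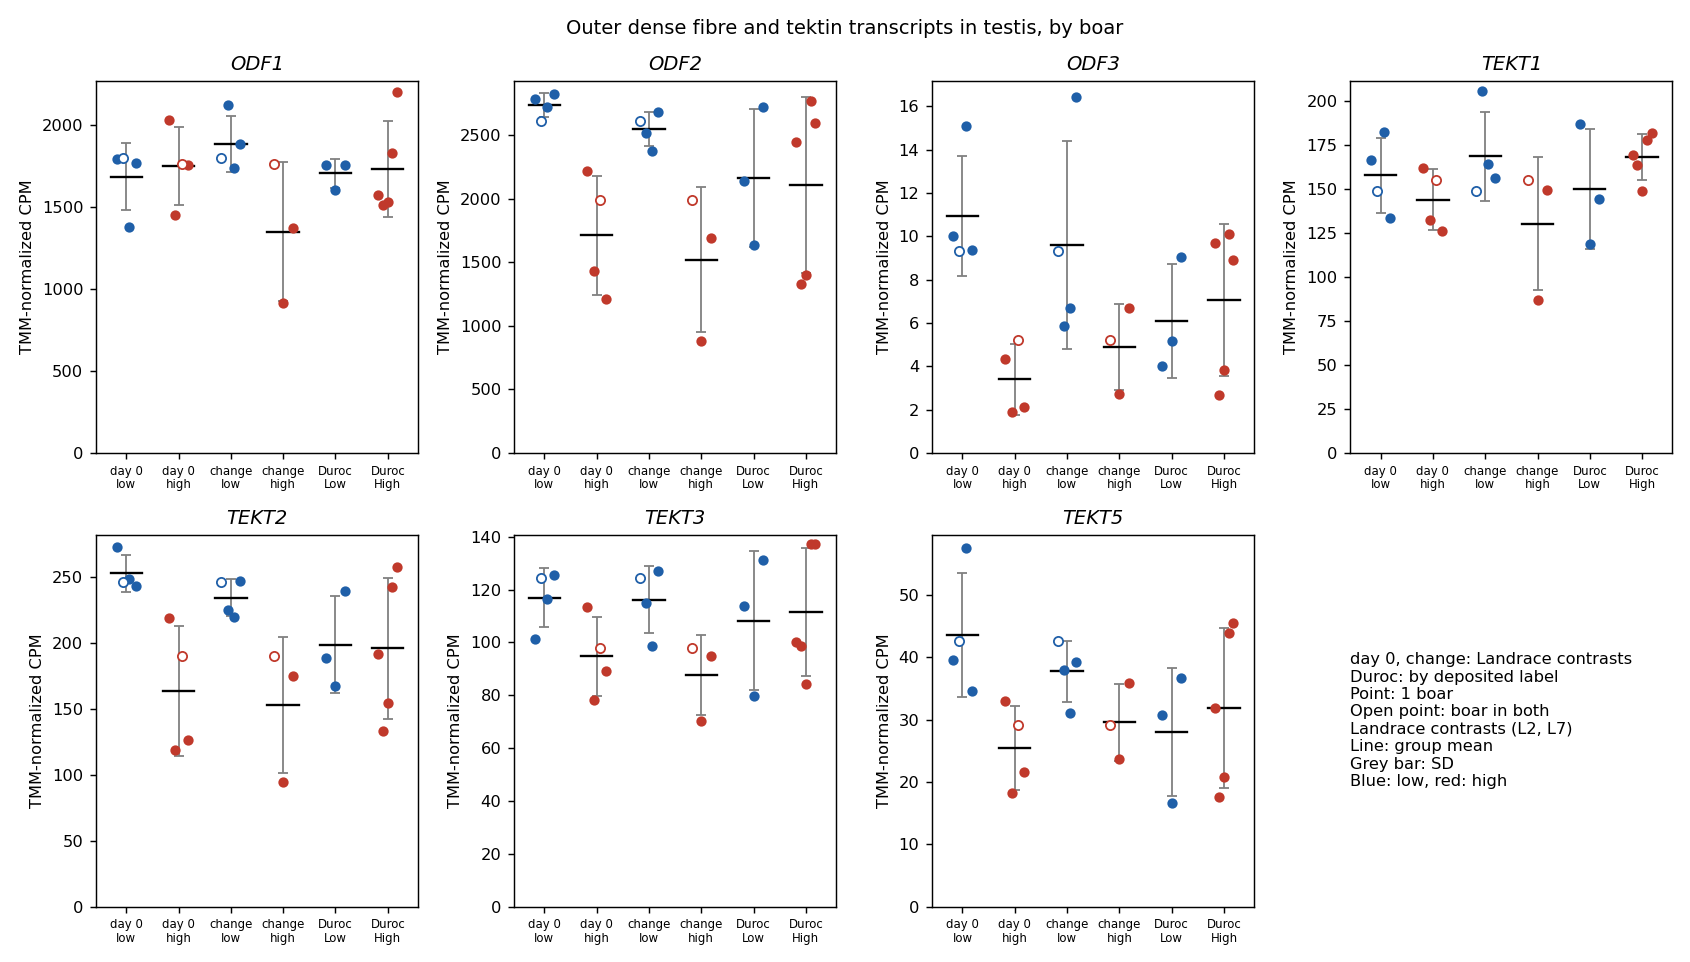
TMM-normalized CPM of the 7 genes in each boar (vertical axis, from 0), by contrast and group on the horizontal axis, with the group mean as a line and the SD as a grey bar. The high group lies wholly below the low group at day 0 for ODF2, ODF3, TEKT2 and TEKT5, and the Duroc groups overlap for every gene.

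At day 0, 4 of the 7 genes were lower in the high hyperactivity boars, and none was higher, at an adjusted p under 0.05. These were the outer dense fibre genes ODF2 and ODF3 and the tektin genes TEKT2 and TEKT5, with fold changes between 1.52 and 3.16. The publication had already reported TEKT5 as differentially expressed in contrast (i). Since the genes were chosen with earlier results known, the count of 4 is not an independent test. Over all 12979 genes tested, 20.7% passed, 15.8% as lower and 4.82% as higher, so lower calls were frequent in this contrast as a whole. The likelihood ratio test called the same 4 genes, with 18.7% of all genes lower. The median log2 fold change (high minus low) was -0.61 over the 7 genes and 0.03 over all genes.

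ODF3 differed most. Its level was 9.99, 9.34, 15.1 and 9.37 CPM in the low boars L1 to L4, and 4.34, 1.91, 5.20 and 2.13 CPM in the high boars L5 to L8. Every low boar was above every high boar, with L6 and L8 lowest. The fit put it 3.16-fold lower in the high group (log2 fold change -1.66, SE 0.34), and it passed edgeR's quasi-likelihood test (adjusted p = 0.0208).

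The transcript of ODF2, a main fibre protein, was measured at 2788, 2615, 2720.4 and 2828 CPM in L1 to L4 and at 2218, 1435, 1991 and 1211 CPM in L5 to L8. The low boars lay close together, with a mean of 2738 ± 93.1 CPM (SD, n = 4), whereas the high boars spread over 1714 ± 469.5 CPM (SD, n = 4). L6 and L8 were again lowest and the groups did not overlap. The log2 fold change was -0.65 (SE 0.20, edgeR adjusted p = 0.0390).

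TEKT5 had 39.5, 42.7, 57.6 and 34.7 CPM in L1 to L4 and 33.0, 18.2, 29.1 and 21.6 CPM in L5 to L8. The groups did not overlap, although the lowest low boar, L4, and the highest high boar, L5, were close. Its log2 fold change was -0.75 (SE 0.22, edgeR adjusted p = 0.0366).

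TEKT2, a tektin of the doublet microtubules, had 273, 246, 248 and 243 CPM in the low boars and 219, 119, 189.5 and 126 CPM in the high boars. Here too L6 and L8 were lowest and no high boar reached the low boars. Its log2 fold change was -0.61 (SE 0.20), and the edgeR adjusted p of 0.04996 was just under the threshold. The call of TEKT2 was lost in 12 of 17 alternative runs, among them another normalization and other filters.

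The remaining 3 genes did not pass. ODF1 ranged from 1375 to 1794 CPM in the low boars and from 1450.0 to 2029 CPM in the high boars, with a log2 fold change of 0.071 and a 95% interval of -0.27 to 0.41 (edgeR adjusted p = 0.743). TEKT1 ranged from 134 to 183 CPM against 126 to 162 CPM, with a log2 fold change of -0.12 and an interval of -0.43 to 0.19 (edgeR adjusted p = 0.544). TEKT3, which is needed for a normal tail shape in mouse sperm, ranged from 101 to 126 CPM in the low boars and from 78.3 to 114 CPM in the high boars, with a log2 fold change of -0.29 and an interval of -0.61 to 0.039 (edgeR adjusted p = 0.160). In the TEKT3 comparison, 15 of the 16 pairs of a high and a low boar had the lower value in the high boar.

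The 4 genes that passed were also those whose groups did not overlap, in each case with an exact permutation p of 0.0286, the smallest that 4 boars against 4 allow (two-sided). Groups did not overlap for 28.2% of all genes, with the high group lower for 20%. The lower values in bulk tissue can reflect fewer cells that carry a transcript or less of it per cell, which cannot be told apart here.

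The calls depended on single boars. Without L3 or without L6, 0 of the 7 genes passed the edgeR quasi-likelihood test, and in both cases 1 gene passed among all genes. Among all genes, 2682 passed with all boars, 966 without L1 and 1836 without L2, so calls of genes in general fell there too. Of the 7 genes, only ODF3 passed without L1 or without L8. Without L4 ODF3 and TEKT5 passed, and without L2 ODF2, ODF3 and TEKT5 passed. Without L5 or without L7 all 4 calls remained. The log2 fold changes of the 4 genes stayed below 0 in each of these fits, from -1.96 to -1.45 for ODF3, -0.90 to -0.61 for TEKT5, -0.80 to -0.51 for ODF2 and -0.78 to -0.47 for TEKT2. Without both L6 and L8, left out after it was seen that they had the lowest values, they were -1.15, -0.45, -0.34 and -0.26 in the same order, and none passed.

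**Figure D2:**
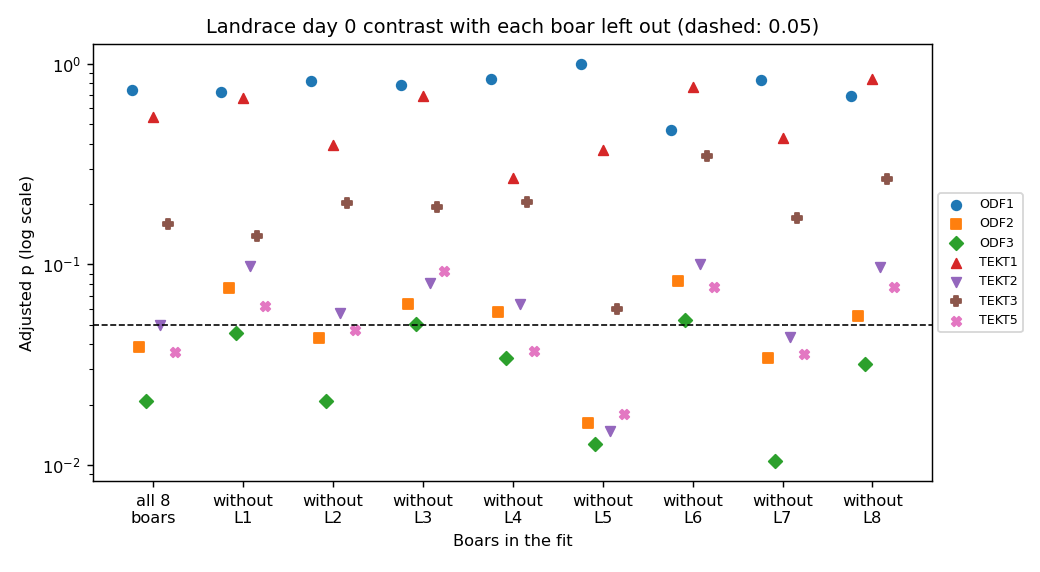
Adjusted p of the 7 genes at day 0 (log axis) in edgeR fits with all 8 boars and with each boar left out (horizontal axis), with the threshold of 0.05 as a dashed line. With all boars ODF2, ODF3, TEKT2 and TEKT5 lie under the line, and without L3 or L6 none does.

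Because ODF1 did not pass, the other genes were also set against ODF1 of the same library, which removes the library size from the comparison. This scaling was chosen after seeing the data. The log2 ratio to ODF1 was lower in the high group by a mean difference of -1.84 for ODF3, -0.84 for TEKT5, -0.77 for ODF2, -0.73 for TEKT2 and -0.37 for TEKT3. For these 5 of the 6 genes the groups did not overlap, which had been so for 4 of them before scaling. The fifth, TEKT3, was separated narrowly, with a highest log2 ratio of -4.158 in the high and a lowest of -4.140 in the low boars. Since ODF1 differed little between the groups, the ratios largely repeat the unscaled differences and are no separate evidence. On the same scale the groups did not overlap for 20.5% of all genes, with the high group lower for 19.2%. For TEKT1 the difference was -0.19 and the groups overlapped. The ratio of ODF2 to ODF1 ran from 0.54 to 0.98 on the log2 scale in the low boars and from -0.54 to 0.18 in the high boars.

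In contrast (iii), no gene passed the adjusted threshold among 12824 tested (0%), and so none of the 7 did. At an unadjusted p under 0.05 the quasi-likelihood test counted 2540 genes, or 19.8%, while the likelihood ratio test called 64 genes (0.499%) and DESeq2 123, none of them an outer dense fibre or tektin gene. All 7 genes had log2 fold changes below 0, as did 49.6% of all genes, and 5 of the 7 had an unadjusted p under 0.05. Their adjusted p ran from 0.240 to 0.327 in edgeR's test, and their median log2 fold change was -0.48.

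ODF2 had 2615, 2521, 2373 and 2686 CPM in the low boars L2, L9, L10 and L12, and 1991, 883 and 1689 CPM in the high boars L7, L13 and L15. The groups did not overlap, and L13 was lowest by a wide margin. The log2 fold change was -0.74 (SE 0.24, edgeR adjusted p = 0.240).

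TEKT2 had 246, 224, 219 and 246 CPM in the low boars and 189.5, 94.1 and 175 CPM in the high boars, again without overlap and with L13 lowest. Its log2 fold change was -0.61 (SE 0.22, edgeR adjusted p = 0.240). TEKT3, the third gene without overlap, had 124, 115, 98.6 and 127 CPM against 98.1, 70.2 and 94.7 CPM, so that L7 lay just below L10. Its log2 fold change was -0.40 (SE 0.16, edgeR adjusted p = 0.240). Groups did not overlap for 16.2% of all genes, with the high group lower for 8.71%.

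For the other 4 genes the groups overlapped. ODF3 had 9.34, 5.87, 6.68 and 16.4 CPM in the low boars and 5.20, 2.74 and 6.68 CPM in the high boars, with a log2 fold change of -0.96 (SE 0.40). ODF1, which differed little at day 0, was 1736 to 2119 CPM in the low boars and 1761, 913 and 1371 CPM in the high boars, with a log2 fold change of -0.48 and a 95% interval of -0.93 to -0.023. TEKT1 and TEKT5 had log2 fold changes of -0.37 and -0.35. L13 had the lowest value of all Landrace boars for 5 of the 7 genes, all except ODF3 and TEKT5, and the log2 fold changes without L13 moved to -0.24 for ODF1, -0.45 for ODF2, -0.66 for ODF3, -0.13 for TEKT1, -0.34 for TEKT2, -0.25 for TEKT3 and -0.19 for TEKT5.

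Relative to ODF1 of the same library, all 6 other genes overlapped between the groups of contrast (iii), with differences in log2 ratio from -0.42 for ODF3 to 0.16 for TEKT5. On this scale 26.8% of all genes did not overlap, and 0.445% with the high group lower. The Landrace contrasts share L2 and L7, so their values are not independent. Side by side, the log2 fold changes at day 0 and in contrast (iii) were 0.071 and -0.48 for ODF1, -0.65 and -0.74 for ODF2, -1.66 and -0.96 for ODF3, -0.12 and -0.37 for TEKT1, -0.61 and -0.61 for TEKT2, -0.29 and -0.40 for TEKT3, and -0.75 and -0.35 for TEKT5.

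**Figure D3:**
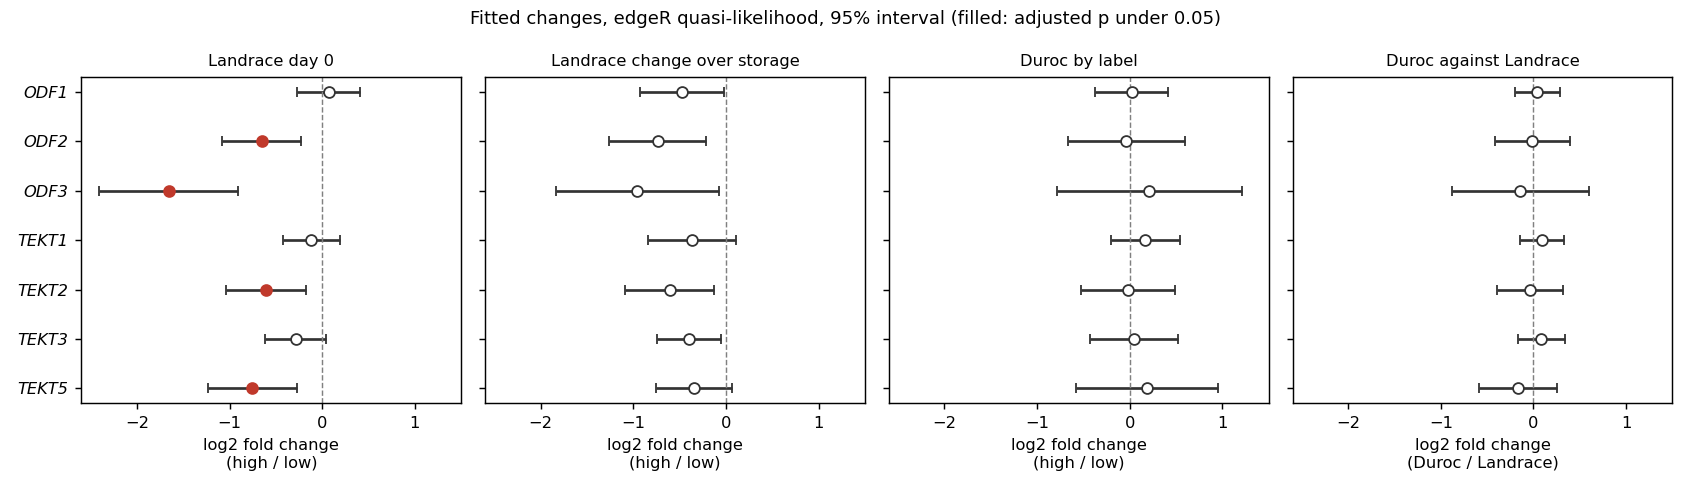
Log2 fold change (horizontal axis) of the 7 genes with its 95% interval from edgeR's quasi-likelihood fit, in the 2 Landrace contrasts, in Duroc by label and between breeds, with filled points for an adjusted p under 0.05. Filled points occur at day 0, for ODF2, ODF3, TEKT2 and TEKT5, while all Duroc intervals span 0.

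In Duroc, no gene passed among 13043 tested (0%). The unadjusted p was under 0.05 for 158 genes, or 1.21%, and neither the likelihood ratio test nor DESeq2 called a gene. The log2 fold changes of the 7 genes, labelled High minus labelled Low, ran from -0.036 for ODF2 to 0.21 for ODF3, and their edgeR adjusted p rounded to 1. The intervals were wide, for example -0.67 to 0.59 for ODF2 and -0.79 to 1.21 for ODF3.

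The spread within each label was large, and the labelled groups overlapped for each of the 7 genes (1.36% of all genes did not overlap). ODF3 had 9.70, 2.68, 3.85, 10.1 and 8.91 CPM in D1 to D5 and 4.02, 5.18 and 9.05 CPM in D6, D7 and D9. ODF2 had 2446, 1327, 1404, 2773 and 2597 CPM in the former and 2139.8, 1636 and 2721 CPM in the latter. D2, D3 and D7 were below the Duroc median for all 7 genes, and D4 and D5 were below it for none.

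The log2 fold change at day 0 was compared between breeds by the interaction of breed and label in 1 fit. None of 12920 genes passed (0%), with 1946 genes, or 15.1%, at an unadjusted p under 0.05, 3 (0.0232%) called by the likelihood ratio test and 6 by DESeq2. Of the 7 genes, 1 had an unadjusted p under 0.05, ODF3, with a difference of 1.85 (SE 0.63, unadjusted p = 0.00881, adjusted p = 0.329 in edgeR's test). This fit takes the Duroc labels as deposited, and since turned labels would change its size for every gene, it is given as a value under those labels and the day 0 effect is not compared further between the breeds.

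No difference between the breeds was detected. Over all 21 boars 378 of 13126 genes, or 2.88%, differed between Duroc and Landrace, and none was an outer dense fibre or tektin gene. The log2 fold changes, Duroc minus Landrace, ran from -0.17 for TEKT5 to 0.093 for TEKT1, with edgeR adjusted p from 0.971 to 0.998. ODF2, for example, was 2130.5 ± 597 CPM in Duroc (SD, n = 8) and 2151 ± 653 CPM in Landrace (SD, n = 13).

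Variation between boars differed widely among the genes. Over the 21 boars the highest value exceeded the lowest 8.61-fold for ODF3, 3.47-fold for TEKT5, 3.20-fold for ODF2, 2.90-fold for TEKT2, 2.41-fold for ODF1, 2.37-fold for TEKT1 and 1.96-fold for TEKT3. The SD of log2 CPM over the Landrace boars was 0.99 for ODF3, at percentile 97.6 of 13126 genes, and 0.53 for ODF2, at percentile 76.4. ODF1, TEKT1 and TEKT3 had SDs of 0.32, 0.30 and 0.27, under the median of 0.34 over all genes.

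**Figure D4:**
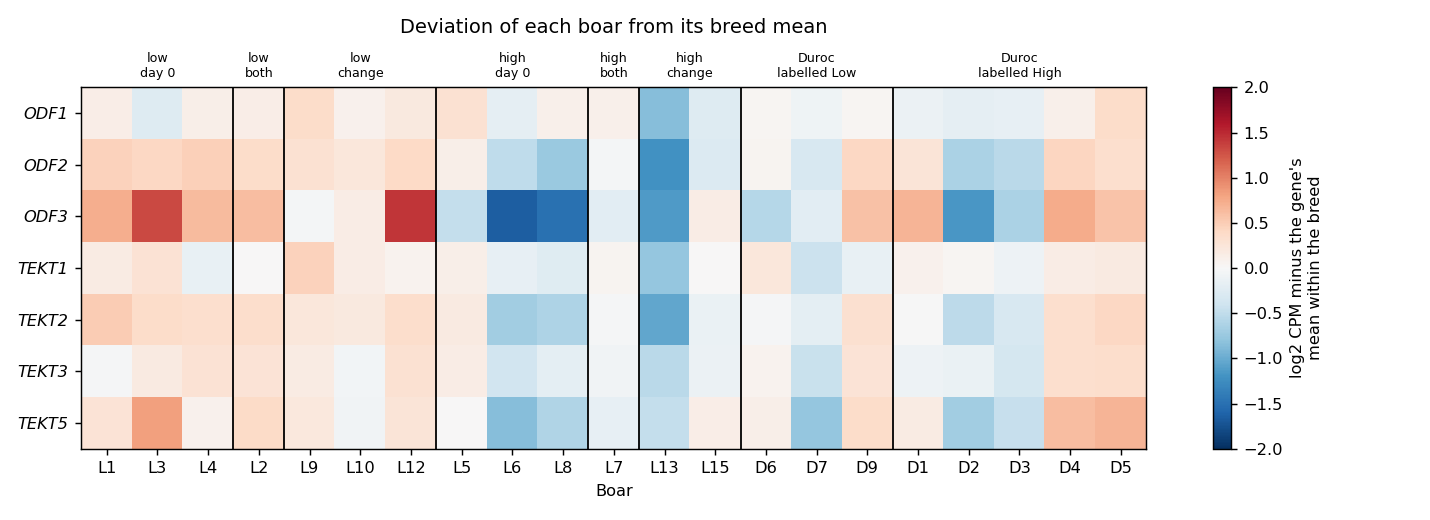
Deviation of log2 CPM from the mean of the gene within the breed (colour scale, -2 to 2), for the 7 genes in rows and the 21 boars in columns, ordered by group. L6, L8, L13, D2, D3 and D7 are at or below the breed mean for nearly all genes, and ODF3 has the strongest colours.

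With each gene centred on its mean within the breed, ODF2 and TEKT2 followed each other most closely of the 21 pairs, with a root mean square difference of 0.12 in log2 CPM over the 21 boars, although one encodes a fibre protein and the other a microtubule protein. ODF1 and ODF3 differed most, at 0.81. Among 11045 genes with a symbol, the gene with the smallest such difference was CSNK2B for ODF1 (0.12), ATP8B3 for ODF2 (0.090), PACS2 for ODF3 (0.16), ABCF2 for TEKT2 (0.079), OSBPL10 for TEKT3 (0.10) and BEST1 for TEKT5 (0.15). These distances describe the 21 libraries and were not tested.

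Related genes were examined next. Of the 4 listed relatives of the outer dense fibre genes, 3 were matched and 2 tested, since ODF3B was under 1 CPM in every library. At day 0 ODF3L1, a relative of ODF3, was lower in the high group, with 3.88 to 5.68 CPM in the low boars and 1.07 to 2.17 CPM in the high boars (log2 fold change -1.64, SE 0.30, edgeR adjusted p = 0.0208). ODF2L, a centrosomal relative of ODF2, had a log2 fold change of 0.40 (edgeR adjusted p = 0.0752). Among all genes tested, 15.8% passed as lower at day 0.

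Of 7 genes whose proteins bind to, modify or lie in the outer dense fibres, 6 were matched and 4 tested, with SPAG5 and KLC3 under 1 CPM in every library. At day 0, 1 of the 4 was lower, where 15.8% of all genes passed as lower. This was CCDC42, a partner of ODF1 and ODF2 at the head-tail coupling, with 19.2 to 27.7 CPM in the low boars and 5.53 to 16.2 CPM in the high boars (log2 fold change -1.07, SE 0.29, edgeR adjusted p = 0.0284). The log2 fold change was -0.48 for SPAG4, which binds ODF1, -0.36 for TSSK4, a kinase that phosphorylates ODF2, and 0.30 for VDAC3, a channel protein also found in the fibres, and none of these passed.

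Tektins lie inside the microtubule doublets together with other inner proteins, of which 22 of 27 listed were matched and tested. At day 0, 2 were lower and 1 was higher, so that 13.6% passed against 20.7% of all genes, and the median log2 fold change was 0.06 against 0.03 over all genes. PIERCE1, which ties such proteins to the outer dynein arms, had a log2 fold change of -1.22 (SE 0.26, edgeR adjusted p = 0.0208), and SPACA9, a protein inside sperm microtubules, one of -0.74 (SE 0.21, edgeR adjusted p = 0.0356). MNS1, a flagellar filament protein, was higher, with a log2 fold change of 0.60 (SE 0.16, edgeR adjusted p = 0.0274), and CFAP141 had one of 0.42 (edgeR adjusted p = 0.0525). None of the relatives, partners or inner proteins passed in contrast (iii) or in Duroc, where no gene did, or between breeds.

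**Figure D5:**
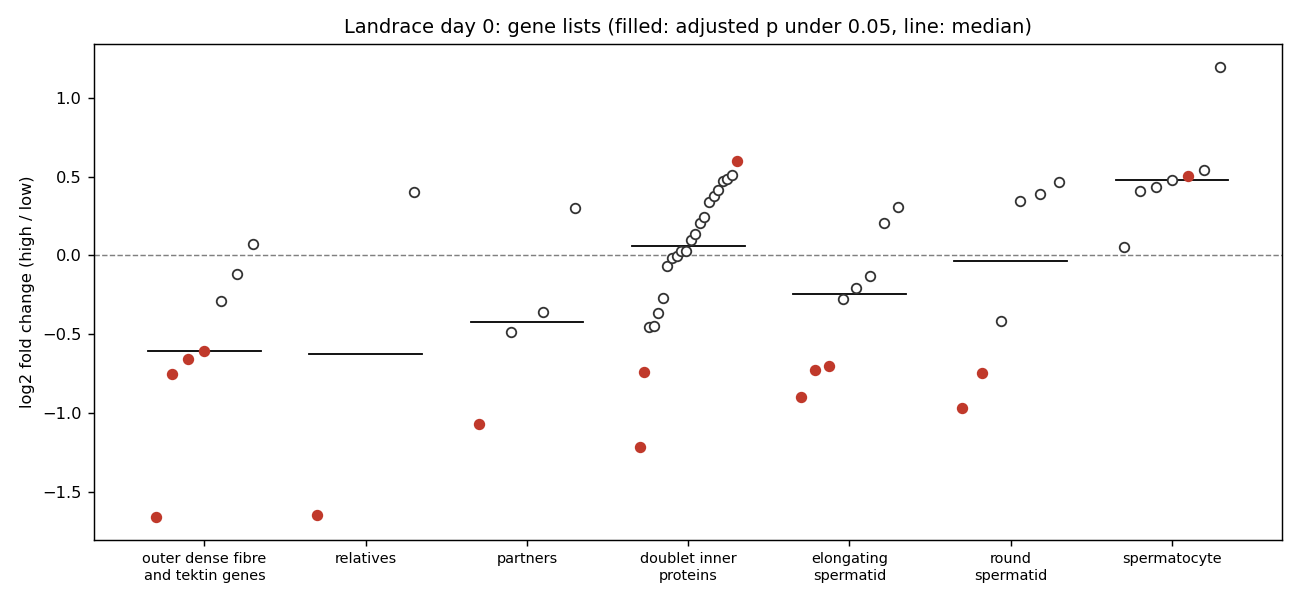
Log2 fold change at day 0 (vertical axis, high against low) of each gene tested, by gene list, with a line at the list median and filled points for an adjusted p under 0.05. The outer dense fibre and tektin genes have a median of -0.61, the doublet inner proteins one of 0.06 and the spermatocyte markers one of 0.48.

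Cell type markers were examined beside these genes. At day 0, 9 of 53 markers tested passed, or 17%, against 20.7% of all genes, 7 as lower and 2 as higher. Lower were 3 of 8 elongating spermatid markers. The log2 fold changes of the 8 ran from -0.90 for GAPDHS to 0.31 for AKAP4, and their summed CPM was 9576 to 13788 in the low boars and 10814 to 14193 in the high boars. Of 6 round spermatid markers 2 were lower, from -0.96 for TSSK2 to 0.46 for ACRV1, with sums of 1209 to 1367 CPM in the low and 1203 to 1808 CPM in the high boars. Of 7 spermatocyte markers 1 was higher, and all 7 had log2 fold changes above 0, from 0.054 for MEIOB to 1.20 for SPO11, with sums of 1116 to 1396 CPM in the low and 1404 to 2171 CPM in the high boars, which did not overlap. Peritubular myoid cell markers were lower for 2 of 5, from -1.50 for DES to -0.19 for MYLK, with sums of 113 to 216 CPM in the low and 84.5 to 138 CPM in the high boars.

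Of 6 spermatogonium markers 1 was higher, from -0.46 for KIT to 0.62 for ID4. None of the Sertoli cell, Leydig cell, macrophage, endothelial or rete and efferent duct markers passed at day 0. A shared direction was not particular to spermatocyte markers. In that contrast all 6 Leydig cell markers were above 0 (median 0.34) and all 4 endothelial markers below 0 (median -0.29). Over all genes, 47.9% were below 0. The duct markers, which include the cilia regulator FOXJ1, ran from -0.82 for FOXJ1 to -0.016 for EPCAM, with sums of 21.5 to 56.4 CPM in the low and 10.9 to 86.8 CPM in the high boars. In contrast (iii), all 8 elongating spermatid markers had log2 fold changes below 0, from -1.05 for PRM1 to -0.32 for AKAP4, and their summed CPM was 10848 to 13553 in the low boars and 11328, 6042 and 7501 in L7, L13 and L15. Of the 22 doublet inner proteins 19 were below 0 in that contrast. All 6 Leydig cell, all 6 Sertoli cell, all 4 endothelial and both macrophage markers tested were above 0, with median log2 fold changes of 0.59, 0.29, 0.54 and 0.55, and none of the 53 markers passed. Set against the summed elongating spermatid markers of the same library, the mean log2 levels at day 0 differed by 0.028 for ODF1, -0.75 for ODF2, -1.82 for ODF3, -0.16 for TEKT1, -0.70 for TEKT2, -0.34 for TEKT3 and -0.82 for TEKT5, for which the groups then overlapped. TNP1 made up much of that sum, with means of 5783 CPM in the low and 6614 CPM in the high boars, and its log2 fold change was 0.21 where that of PRM1, TNP2 and GAPDHS was -0.70, -0.73 and -0.90. The part of the cell type markers in the results was not tested.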

How the data were processed

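Testis RNA was sequenced from stranded mRNA libraries, 1 per boar. Per the labels and the methods, the authors used Trimmomatic 0.36 for trimming, STAR for alignment to the pig assembly Sscrofa11.1, and HTSeq, in reverse-stranded mode, for counting per Ensembl gene. The deposited values are raw counts, without normalization. The 5 summary rows that name no gene were left out of library sizes. Reads that HTSeq assigned to no feature made up 21.5 to 30.2% of each library, and all reads counted on no gene 29.4 to 39.0%. No pair of libraries within a breed was a duplicate, with a chi-square per degree of freedom of at least 42.7 over 106 pairs.

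Groups were taken from the labels. A gene was kept when 4 or more libraries (8 for both breeds) reached 1 CPM, TMM factors were computed and edgeR 4.0.16 (R 4.3.3, limma 3.58.1) was used for quasi-likelihood tests of all genes in the boars of each comparison, calling genes at a Benjamini-Hochberg adjusted p under 0.05. The likelihood ratio test, which the authors used, and DESeq2 1.42.0 were alternatives, as were RLE factors, other filters, a robust fit and leaving out boars. Printed CPM used TMM factors over all 21 libraries, and log2 CPM a prior count of 2. Ratios to ODF1 used counts plus 0.5. Permutation tests were exact and two-sided. Each SE is the log2 fold change over the root of its F statistic.

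Symbols were matched through an identifier table that named 14857 of the 25880 genes, and coordinates through RefSeq. The genes and lists were chosen with earlier results of these data known, and no list was tested as a set. Named genes were all those matched to the outer dense fibre, tektin, relative and partner lists, the 4 inner proteins with the smallest p at day 0, the ends of each marker list and the gene nearest to each outer dense fibre or tektin gene, of which 1 is not reported here. In counts simulated for day 0 (12979 genes), 55 of 101 genes changed by 1 on the log2 scale and 91 of 99 changed by 2 were called, with 12 unchanged genes. Far fewer genes were changed there than the 20.7% called in the measured day 0 data. The adjusted p depends on that share, so the simulation does not give the power of the day 0 contrast. For changes of 1, 60 of 115 were called in contrast (iii) (12824 genes), 37 of 108 in Duroc (13043 genes), 83 of 105 between breeds (13126 genes) and 19 of 93 in the interaction (12920 genes). Exon lengths were not used here, so levels of different genes were not compared. Sequences were not analysed here.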

Additional observations from a re-analysis of the deposited data

Results flagged for a closer look

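In 35 groups of 4 to 10 boars, the highest or lowest value was compared with its neighbour by Dixon's criterion, which chance meets in about 1.75 of 35 groups. It was met in 4. In the low group at day 0, ODF1 in L3 was 1375 CPM, below 1769 to 1794 CPM in the other 3 boars, and ODF3 in L3 was 15.1 CPM, above 9.34 to 9.99 CPM. TEKT2 in L1 of the same group was 273 CPM, above 243 to 248 CPM. Among all 8 Duroc boars, ODF1 in D5 was 2201 CPM, above 1512 to 1824 CPM in the others.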

How the results depend on the processing

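The 4 calls at day 0 numbered 4 by the likelihood ratio test, DESeq2 and a robust fit, and 3, without TEKT2, with RLE factors, without a filter, with edgeR's own filter and without L2 and L7. All 13 Landrace libraries in 1 fit gave 2 (ODF3 and TEKT5). Leaving out each boar gave 0 to 4, and leaving out L6 and L8, chosen after seeing the data, gave 0. The other comparisons gave 0 calls of these genes under each alternative run.

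Of 678 values of single genes under alternatives, 608 kept direction and side of the threshold, 28 fell short of it, 1 passed it and 41 turned, the latter among genes not called. These values include the genes and comparisons without a call, which had none to lose. Of 17 alternatives for each day 0 fold change, the call fell short in 12 for TEKT2, 7 for ODF2, 5 for TEKT5 and 3 for ODF3. TEKT1 at day 0 turned to 0.047 without L6 and L8, and the other turns concern ODF1 at day 0, Duroc, the breeds and the interaction. With each boar left out in turn, the log2 fold change of ODF1 at day 0 ran from -0.060 to 0.16. In Duroc by label it ran from -0.082 to 0.066 for ODF1, -0.20 to 0.17 for ODF2, -0.017 to 0.62 for ODF3, -0.14 to 0.14 for TEKT2, -0.13 to 0.21 for TEKT3 and -0.080 to 0.44 for TEKT5. Between breeds it ran from -0.023 to 0.072 for ODF1, -0.092 to 0.061 for ODF2, -0.25 to 0.014 for ODF3 and -0.11 to 0.027 for TEKT2, and in the interaction from -0.17 to 0.072 for ODF1. ODF1 in Duroc was -0.0081 with DESeq2 and with RLE factors and -0.0195 without a filter. With the hyperactivity group as a covariate in the day 0 libraries, the breed difference was 0.033 for ODF2, 0.25 for ODF3 and 0.0062 for TEKT2. Apart from the omissions, the cause of these shifts was not tested.

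Levels per coding length were not run, since lengths were not used here. No paired analysis was possible because boars of different groups share no number in the labels. With 3 to 5 boars a group, smaller changes can be missed, in Duroc and the interaction most of all in simulated counts, and ODF3 and ODF3L1 rest on few reads.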
